A study of Arabidopsis thaliana with 24 samples.

Results

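Shoot meristem and leaf primordium genes were followed in dark-grown and light-treated seedlings of Arabidopsis thaliana. The set held 10 genes taken by identifier, STM (AT1G62360), KNAT1 (AT4G08150), AS1 (AT2G37630), AS2 (AT1G65620), CUC1 (AT3G15170), CUC2 (AT5G53950), CUC3 (AT1G76420), ANT (AT4G37750), AN3 (AT5G28640) and FIL (AT2G45190). All 10 were present in each of the 6 deposited tables of 33557 genes. RNA was sequenced from cotyledons, the seed leaves, and hypocotyls, the seedling stem, in 24 samples that formed 8 groups of 3. Each organ was taken from pifq seedlings grown in the dark for 4 days and from wild type seedlings moved from the same darkness into white light (70 µmol per square metre and second) for 1 h or 6 h. Wild type seedlings kept in the dark were their controls. The name pifq is used for plants mutated in the phytochrome interacting factor genes PIF1, PIF3, PIF4 and PIF5, and the labels name no alleles. In all groups, controls included, germination was set off by 3 h of white light, and 5 min of far-red light (2 µmol per square metre and second) came before the darkness.

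The shoot apical meristem is a small dome of dividing cells between the cotyledons from which leaves arise. Class I KNOX homeobox factors such as STM keep its cells undifferentiated, NAC factors of the CUC family mark the boundaries between meristem and organs, and AS1 with AS2 represses KNOX genes in leaf primordia. FIL, ANT and AN3 act in the primordium itself, in the identity of its lower side and in its growth. In seedlings held in darkness leaf development pauses, and light or the loss of PIF factors starts photomorphogenesis, with open cotyledons and a short hypocotyl.

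The authors deposited 1 value per group, in a unit taken as FPKM (fragments scaled to transcript length and library size), so a level below is the authors' group value without a spread between samples, and the read depth is unknown. A gene was called higher or lower where the q-value (the p-value adjusted for many tests) of the authors' deposited table was under 0.05 and the gene had been tested. Standard errors (SE) and 95% intervals of log2 folds were recovered from the authors' test statistic. In whole organs, fewer cells of a type and less RNA per cell cannot be told apart. PIF3 checked the mutant label, with 0.623 FPKM in pifq cotyledons against 64.7 FPKM in wild type and 2.16 FPKM in pifq hypocotyls against 37.6 FPKM in wild type. PIF1, PIF4 and PIF5 still stood at 8.66 to 55.4 FPKM in pifq, and PIF4 was higher there than in wild type in both organs. Of 5 root markers none exceeded 0.129 FPKM in cotyledons, while in hypocotyls PHT1;1 reached 7.79 FPKM and IRT1 1.83 FPKM, both after 1 h of light.

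**Figure D1:**
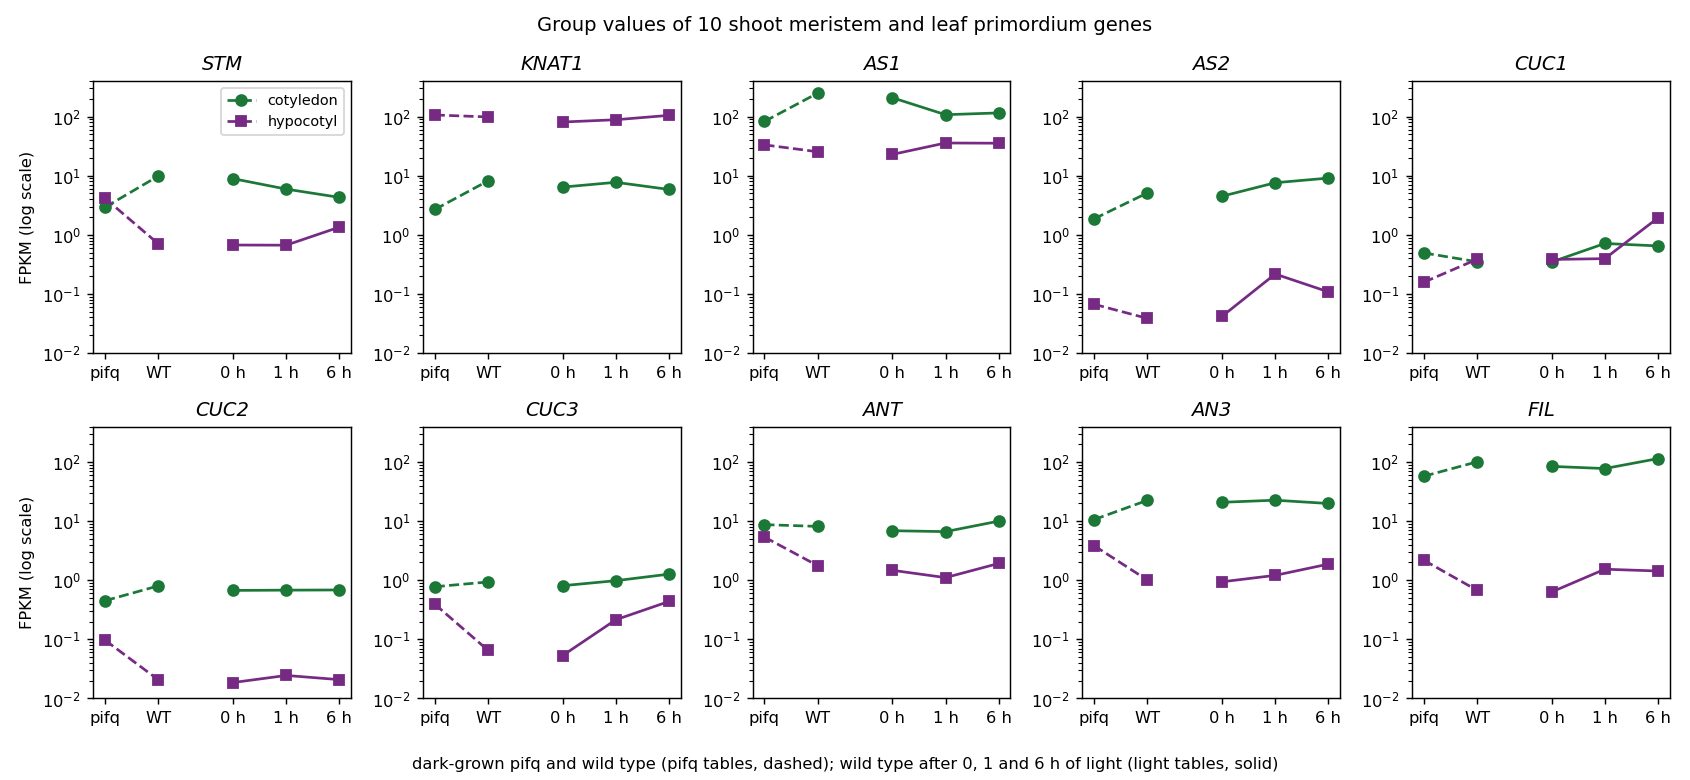
Authors' group values in FPKM (log axis) of the 10 genes, with cotyledons as circles and hypocotyls as squares. Dashed lines join dark-grown pifq and wild type of the pifq tables, and solid lines join wild type after 0, 1 and 6 h of light; STM stood at 2.93 FPKM in pifq cotyledons and 4.14 FPKM in pifq hypocotyls, and in the other groups its cotyledon value was the higher.

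The levels of the 10 genes differed widely between organs in dark wild type seedlings, and for 8 of them the cotyledon value was the higher by far. STM, whose transcript is known from the apex itself, had 8.93 FPKM in cotyledons against 0.671 FPKM in hypocotyls. The 2 organs stand in separate tables whose common scale is not known, so such ratios are descriptions. The ratio of cotyledon to hypocotyl was 13.3 for STM, and 14.1 with the wild type columns of the pifq tables. Those columns are taken to come from the same dark samples and are not an independent repeat. FIL, a YABBY factor of the lower leaf side, showed the widest gap of the 10 genes, 84.6 FPKM in cotyledons against 0.633 FPKM in hypocotyls. AS2, for the LOB domain partner of AS1, followed with 4.49 FPKM in cotyledons and 0.0415 FPKM in hypocotyls. CUC2 stood at 0.674 FPKM in cotyledons and 0.0186 FPKM in hypocotyls, and CUC3 at 0.81 and 0.0532 FPKM in the same order. AN3, also called GIF1 and known as a coactivator of GRF growth factors, had 20.9 FPKM in cotyledons and 0.942 FPKM in hypocotyls. AS1, for the MYB factor of leaf primordia, was the most abundant of the set at 209 FPKM in cotyledons, above 96.3% of the genes tested there, and had 22.9 FPKM in hypocotyls. ANT, for an AP2 factor that promotes organ growth, had 6.9 FPKM in cotyledons and 1.48 FPKM in hypocotyls.

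KNAT1 and CUC1 did not follow this order. KNAT1, the class I KNOX gene known as BREVIPEDICELLUS for its part in stems and pedicels, had 6.42 FPKM in cotyledons and 81 FPKM in hypocotyls, where it exceeded 90.7% of tested genes. CUC1 was low in both organs, with 0.347 FPKM in cotyledons and 0.382 FPKM in hypocotyls. The wild type levels of the pifq tables differed from the dark levels of the light tables, on the log2 scale, by 0.01 to 0.35 over the 10 genes in cotyledons and by -0.11 to 0.29 in hypocotyls. STM spans chromosome 1, 23058582 to 23061722, and KNAT1 chromosome 4, 5147700 to 5150966, both on the minus strand in the coordinates of the deposited TAIR10 tables, and AN3 spans chromosome 5, 10647570 to 10649892, also on the minus strand. None of the 10 genes shares its locus with another gene in the deposited tables. In the RefSeq annotation STM has 4 exons and codes for 382 residues, KNAT1 has 5 exons and codes for 398, and AN3 has 4 exons and codes for 210.

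PIF factors bind the G-box, CACGTG, and the related PBE-box, CACATG, in the promoters of their targets. In the 250 bases before the annotated start of each gene, searched on both strands, the G-box occurred in 0 of the 10 members and in 6.49% of 27443 protein-coding genes, and the PBE-box in 0 of the 10 members and in 11.1% of those genes. These letters are absent from these windows, and sites elsewhere were not searched. The TATA motif, TATAAA on either strand, occurred in 6 of the 10 members and in 47.4% of all promoters. The promoters of STM and AN3, the genes called in opposite directions in the organs of pifq, are shown with that of KNAT1. Like KNAT1, other KNOX genes had higher values in dark hypocotyls, among them KNAT7 with 48.5 FPKM against 0.831 FPKM in dark cotyledons. The sequences run 5′ to 3′ from RefSeq, build TAIR10.1. Each ends at the base before the annotated start, with TATA motifs in capitals.
STM, chr1:23062064-23062313, minus strand: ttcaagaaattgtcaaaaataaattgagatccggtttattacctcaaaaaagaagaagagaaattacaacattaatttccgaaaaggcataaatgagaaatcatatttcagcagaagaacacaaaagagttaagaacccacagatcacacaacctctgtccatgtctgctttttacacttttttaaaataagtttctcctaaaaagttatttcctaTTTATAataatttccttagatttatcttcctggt
AN3, chr5:10650067-10650316, minus strand: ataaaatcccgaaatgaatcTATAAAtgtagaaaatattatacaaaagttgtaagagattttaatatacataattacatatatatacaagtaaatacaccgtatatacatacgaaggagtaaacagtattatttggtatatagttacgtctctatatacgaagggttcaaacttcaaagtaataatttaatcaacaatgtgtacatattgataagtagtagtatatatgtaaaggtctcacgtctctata
KNAT1, chr4:5151160-5151409, minus strand: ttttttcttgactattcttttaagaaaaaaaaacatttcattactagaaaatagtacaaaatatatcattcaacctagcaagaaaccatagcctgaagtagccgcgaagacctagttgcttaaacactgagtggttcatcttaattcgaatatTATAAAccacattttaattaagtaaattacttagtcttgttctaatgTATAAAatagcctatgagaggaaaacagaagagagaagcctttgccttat
In STM the motif begins 34 bases before the start, in KNAT1 97 and 50 bases before it and in AN3 230 bases before it.

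In pifq the members called were lower in cotyledons and higher in hypocotyls, STM and AN3 being called in both organs. In dark pifq cotyledons 4 of 10 tested members fell and 0 rose. All genes of that table gave 5.66% lower and 4.79% higher. STM fell to 2.93 FPKM in pifq cotyledons, against 9.88 FPKM in wild type cotyledons, a log2 fold of -1.75 (SE 0.40). KNAT1 fell to 2.68 FPKM in pifq cotyledons, against 8.19 FPKM in wild type, a log2 fold of -1.61 (SE 0.38). AS1 fell to 83 FPKM in pifq cotyledons, against 249.6 FPKM in wild type, a log2 fold of -1.59 (SE 0.34). The levels in pifq were 0.297 of wild type for STM, 0.327 for KNAT1 and 0.332 for AS1, whose product is known to repress KNAT1. AN3 fell to 10.6 FPKM in pifq cotyledons, against 22.6 FPKM in wild type, a log2 fold of -1.08 (SE 0.33). The q-values of these falls in the authors' deposited table were 0.000372 for STM, 0.000531 for KNAT1, 0.000123 for AS1 and 0.015 for AN3.

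The other 6 members did not pass in pifq cotyledons. FIL stood at 57.6 FPKM in pifq and 101 FPKM in wild type (q = 0.0696 in the authors' deposited table), and its 95% interval ran from -1.41 to -0.21 on the log2 scale. AS2 stood at 1.87 FPKM in pifq and 5.11 FPKM in wild type (q = 0.19 in the authors' deposited table). ANT had 8.74 FPKM in pifq and 8.16 FPKM in wild type, with an interval of the log2 fold from -0.54 to 0.73. CUC1, CUC2 and CUC3 had 0.494, 0.452 and 0.777 FPKM in pifq, against 0.35, 0.805 and 0.937 FPKM in wild type. At these low levels the intervals were wide, from -1.33 to 2.32 for CUC1. The median log2 fold over the 10 members was -0.96, beside -0.03 over all tested genes.

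In dark pifq hypocotyls 4 of 8 tested members rose and 0 fell, where all genes gave 13% higher and 14.5% lower. STM rose to 4.14 FPKM in pifq hypocotyls, against 0.702 FPKM in wild type hypocotyls, a log2 fold of 2.56 (SE 0.55). AN3 rose to 3.85 FPKM in pifq hypocotyls, against 1.01 FPKM in wild type, a log2 fold of 1.93 (SE 0.54). FIL rose to 2.18 FPKM in pifq hypocotyls, against 0.677 FPKM in wild type, a log2 fold of 1.69 (SE 0.66). ANT rose to 5.38 FPKM in pifq hypocotyls, against 1.77 FPKM in wild type, a log2 fold of 1.61 (SE 0.37). The 4 genes have meristem and primordium roles, and each was higher in cotyledons than in hypocotyls of dark wild type. Their q-values in the authors' deposited table were 3.86e-05 for STM, 0.00222 for AN3, 0.0421 for FIL and 0.00014 for ANT.

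KNAT1 had 106.6 FPKM in pifq hypocotyls and 98.7 FPKM in wild type, and the interval of its log2 fold, -0.42 to 0.64, bounds any change there. AS1 had 33.3 FPKM in pifq hypocotyls and 25.4 FPKM in wild type, with an interval from -0.14 to 0.91. CUC3 stood at 0.394 FPKM in pifq and 0.0652 FPKM in wild type (q = 0.132 in the authors' deposited table), and CUC1 at 0.157 FPKM in pifq and 0.385 FPKM in wild type. AS2 and CUC2 were below 0.1 FPKM in both groups and had not been tested by the authors. The median log2 fold of the 8 tested members was 1.65, beside -0.03 over all tested genes.

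**Figure D2:**
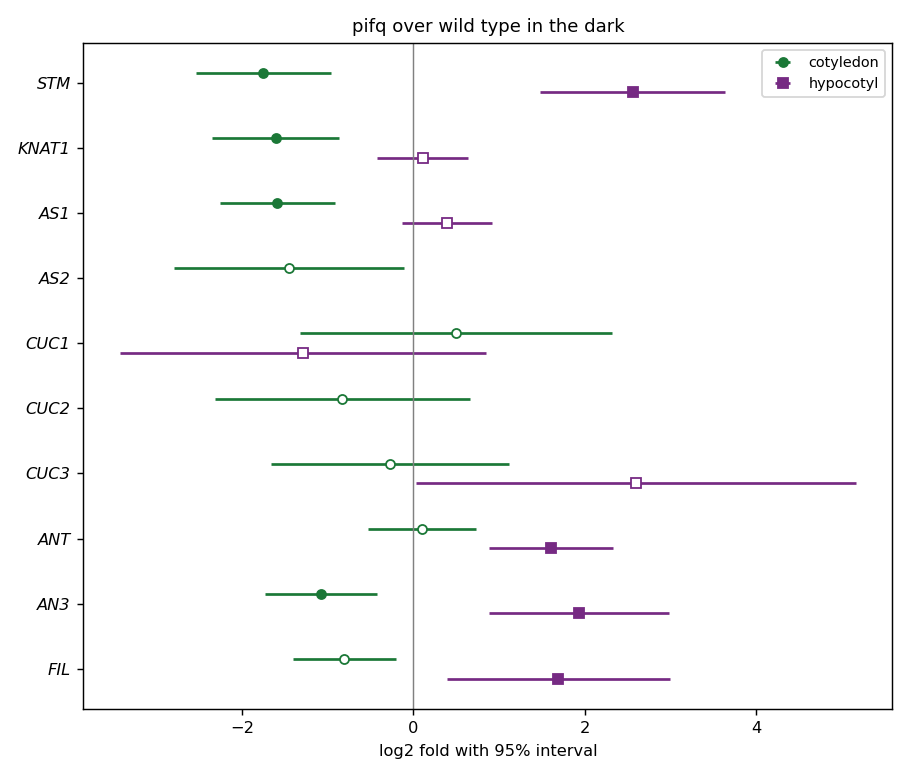
Log2 fold of pifq over wild type in the dark for the 10 genes, with 95% intervals recovered from the authors' statistic; circles are cotyledons, squares hypocotyls, and filled symbols passed the authors' q-value. The STM fold is -1.75 in cotyledons and 2.56 in hypocotyls, and AS2 and CUC2 have no hypocotyl point because they were not tested.

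The difference between the organs was itself tested, as the cotyledon log2 fold minus the hypocotyl log2 fold over its SE, adjusted by Benjamini-Hochberg over 18582 genes tested in both pifq tables. Of 8 members tested, 6 differed between organs at an adjusted p under 0.05, and 11.4% of all genes did. STM had the largest difference of the 8 tested members, -4.31 on the log2 scale (95% interval -5.65 to -2.97). AN3 differed by -3.02 (interval -4.26 to -1.78), FIL by -2.50 (interval -3.93 to -1.06) and AS1 by -1.98 (interval -2.83 to -1.12). KNAT1 differed by -1.72 (interval -2.63 to -0.81) and ANT by -1.51 (interval -2.47 to -0.55). As a description across separate tables, the ratio of cotyledon to hypocotyl level of STM was 0.709 in pifq, against 14.1 in wild type of the same tables. For AN3 it was 2.77 in pifq against 22.4 in wild type, and for FIL 26.4 in pifq against 149 in wild type. Which organ holds more STM in pifq was not tested. The sample titles name the organ alone and do not give which samples carried the apex, whose part in these values was not tested. CUC1 had a difference of 1.79 and CUC3 of -2.86, with intervals from -1.02 to 4.60 and from -5.79 to 0.06.

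Other genes high in dark cotyledons were also higher in pifq hypocotyls. A set of 1282 genes with at least 8 times the level in dark wild type cotyledons and at least 5 FPKM there, chosen after the values were seen and holding STM, AS1, AN3 and FIL, had a median log2 fold of 1.74 in pifq hypocotyls, with quartiles of 0.90 and 2.56. The choice itself favours such values, since a low level in dark wild type hypocotyls helped to choose the genes and is the denominator of their fold. Of 1188 of them tested there, 732 rose and 36 fell, where all genes gave 13% higher and 14.5% lower, and the choice favours these counts too. The STM fold of 2.56 lay at the upper quartile of that set, those of AN3 and FIL near its median, and that of AS1, 0.39, below its lower quartile. Of 6 stomatal lineage markers, which belong to green epidermis, 3 of 4 tested rose, beside that 13% of all genes. Their summed level was 7.69 FPKM in pifq hypocotyls against 0.952 FPKM in wild type hypocotyls. MUTE was listed at 0 in those wild type hypocotyls. All 5 photosynthesis markers rose in pifq hypocotyls too, beside the same 13%, to a sum of 5128 FPKM in pifq against 296.5 FPKM in wild type. Such rises were not limited to pifq hypocotyls. In pifq cotyledons 3 of 4 tested photosynthesis markers and 1 of 6 stomatal markers rose, beside 4.79% of all genes. In lit wild type hypocotyls all 5 photosynthesis markers rose at 1 h and at 6 h, beside 10% and 17.3% of all genes. Of the stomatal markers 0 of 3 tested rose there at 1 h and 0 of 2 at 6 h. In pifq cotyledons the 1282 genes had a median log2 fold of -0.31, and 1502 genes high in dark hypocotyls, KNAT1 among them, had a median of 0.60, with the same dependence on how they were chosen. The part of these shifts in the results for STM, AN3, FIL and ANT was not tested. The size of the rises depended on how low levels are treated, since with log2(FPKM + 1) they were 1.59 for STM, 1.27 for AN3, 1.21 for ANT and 0.92 for FIL. The meristem genes WUS and CLV3 bear on the apex itself. WUS was at or under 0.12 FPKM in all groups and had not been tested by the authors. CLV3 stood at 0.777 FPKM in pifq hypocotyls against 0.0575 FPKM in wild type, a log2 fold of 3.76 (SE 3.55). In pifq cotyledons CLV3 stood at 0.845 FPKM against 1.41 FPKM in wild type, a log2 fold of -0.74 (SE 1.13). Neither difference was called, and with such SEs neither direction is settled.

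**Figure D3:**
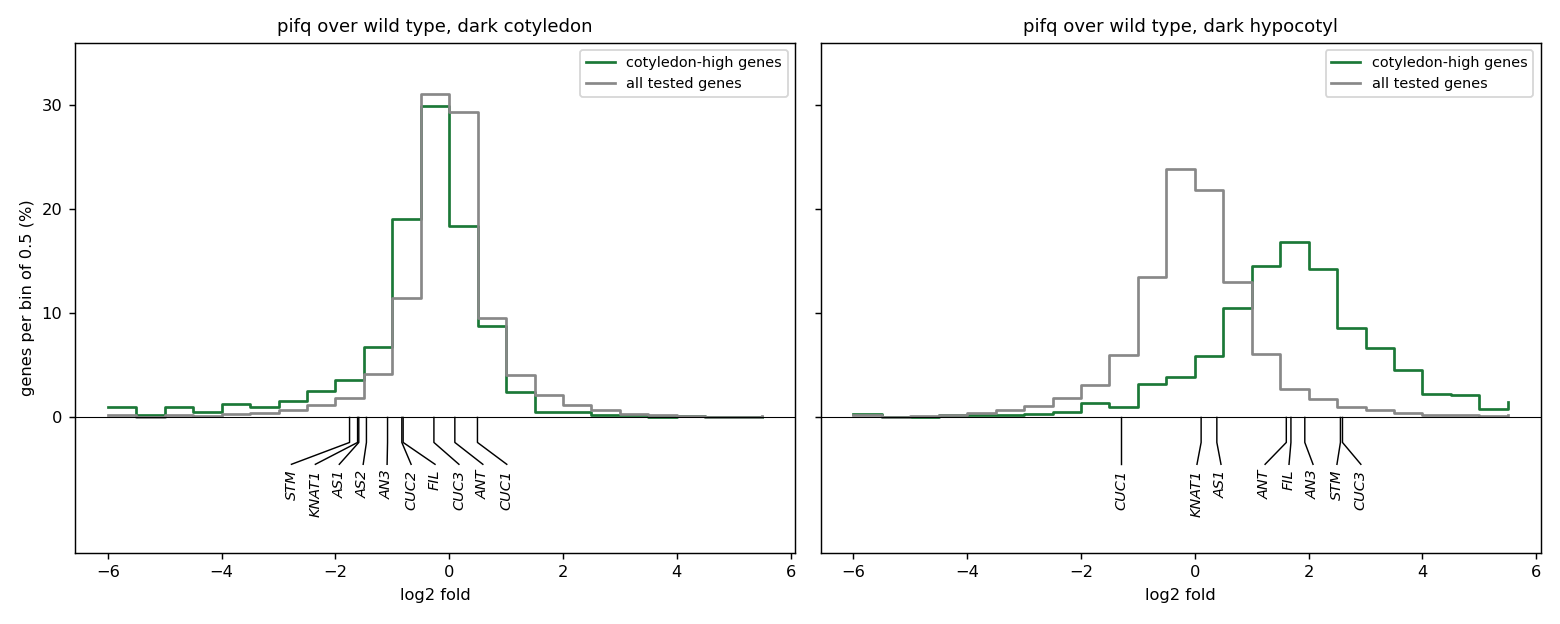
Share of genes per bin of 0.5 in the log2 fold of pifq over wild type, for genes at least 8-fold higher in dark cotyledons (green) and all tested genes (grey), with the tested members marked under the axis; folds beyond 6 are counted in the end bins. In hypocotyls the genes of the green curve have a median of 1.74 and the marks of ANT (1.61), FIL (1.69) and AN3 (1.93) lie under its highest bin, with STM (2.56) to their right and KNAT1 (0.11) near the median of all genes.

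Light changed few of the 10 genes in wild type cotyledons. After 1 h 1 of 10 members fell and 1 rose, where all genes gave 8.45% lower and 10.6% higher. After 6 h 2 fell and 1 rose, where all genes gave 19.8% lower and 24% higher. The members' shares were thus near this background or below it. AS1 stood at 209 FPKM in the dark, 108 FPKM at 1 h and 115.5 FPKM at 6 h. Its log2 folds over the dark were -0.96 (SE 0.37) and -0.86 (SE 0.38) and its 6 h level was 1.07 times that at 1 h. AS2, whose protein acts together with that of AS1, went the other way, with 4.49 FPKM in the dark, 7.6 FPKM at 1 h and 9.12 FPKM at 6 h, and log2 folds of 0.76 (SE 0.51) and 1.02 (SE 0.53). STM stood at 8.93 FPKM in the dark, 5.93 FPKM at 1 h and 4.3 FPKM at 6 h, and was called at 6 h alone, with a log2 fold of -1.05 (SE 0.46). In the authors' deposited table the q-value of STM was 0.0588 at 1 h and 0.00141 at 6 h.

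The growth and polarity genes were not called in lit cotyledons. AN3 had 20.9, 22.6 and 19.9 FPKM at 0, 1 and 6 h, with an interval of the 6 h log2 fold from -0.83 to 0.69. FIL had 84.6, 77.8 and 114.6 FPKM and ANT 6.9, 6.66 and 10 FPKM at the same times, both short of the threshold at 6 h (q = 0.0954 for FIL and 0.0535 for ANT in the authors' deposited table). KNAT1 had 6.42, 7.73 and 5.85 FPKM. CUC2 stood at 0.674, 0.681 and 0.686 FPKM, CUC3 at 0.81, 0.985 and 1.27 FPKM and CUC1 at 0.347, 0.713 and 0.648 FPKM, none called. The series holds 3 dark wild type samples per organ, so the dark wild type columns of the pifq and light tables are taken to come from the same samples. The likeness of the pifq and light tables is therefore not given as a result.

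In wild type hypocotyls AS1 was the 1 member called after 1 h of light, 1 of 7 tested, where all genes gave 10% higher and 5.14% lower (1987 and 1019 genes, or 727 and 214 with centred folds and a normal p). After 6 h 2 of 8 tested members rose and 0 fell, where all genes gave 17.3% higher and 22% lower (3440 and 4365 genes, or 2242 and 1640 with that setting). AS1 stood at 22.9 FPKM in the dark, 35.8 FPKM at 1 h and 35.5 FPKM at 6 h, with log2 folds of 0.64 (SE 0.36) and 0.63 (SE 0.36). CUC1 stood at 0.382 FPKM in the dark, 0.395 FPKM at 1 h and 1.94 FPKM at 6 h, a log2 fold of 2.34 (SE 0.90) at 6 h with q = 0.00612 in the authors' deposited table. At 6 h CUC1 stood at 0.648 FPKM in cotyledons. With log2(FPKM + 1) its rise in hypocotyls was 1.09. Its boundary relatives stood at lower levels at 6 h, CUC3 at 0.439 FPKM, against 0.0532 FPKM in the dark, and CUC2 at 0.0208 FPKM. The log2 fold of CUC3 was 3.04 (interval 0.07 to 6.02), which was not called (q = 0.0806 in the authors' deposited table). STM had 0.671, 0.667 and 1.35 FPKM at 0, 1 and 6 h, AN3 0.942, 1.21 and 1.88 FPKM, and FIL 0.633, 1.54 and 1.43 FPKM. None of these 3 passed at 6 h, with q-values of 0.0851, 0.0637 and 0.0955 in the authors' deposited table. KNAT1 had 81, 88.5 and 105.1 FPKM and ANT 1.48, 1.11 and 1.93 FPKM. The median log2 fold of the 8 tested members at 6 h was 1.00, beside -0.13 over all tested genes, and the 1282 genes high in dark cotyledons had a median of 2.12 there, a value that their choice by a low dark hypocotyl level favours. The part of that shift in the members' values was not tested.

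The calls in light rest on the authors' p-value. In the light tables it was smaller than a normal p from the authors' statistic, so that a called gene such as AS1 in hypocotyls can have an interval that includes 0 (-0.06 to 1.35 at 1 h). When each fold was centred on the table's median and its p drawn from that statistic by the normal law, CUC1 in hypocotyls at 6 h was the only light call left among the 10 genes, and all 8 pifq calls stayed. In the pifq tables the authors' p-value already follows that normal law, so this setting could change little there. AS2 at 1 h was also lost with p-values adjusted within its own table or among genes of at least 1 FPKM, while at 6 h both settings added ANT in cotyledons and AN3 in hypocotyls to the genes called higher. In addition AS1 in hypocotyls was lost at a q-value under 0.01, as were AN3 in pifq cotyledons and FIL in pifq hypocotyls.

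**Figure D4:**
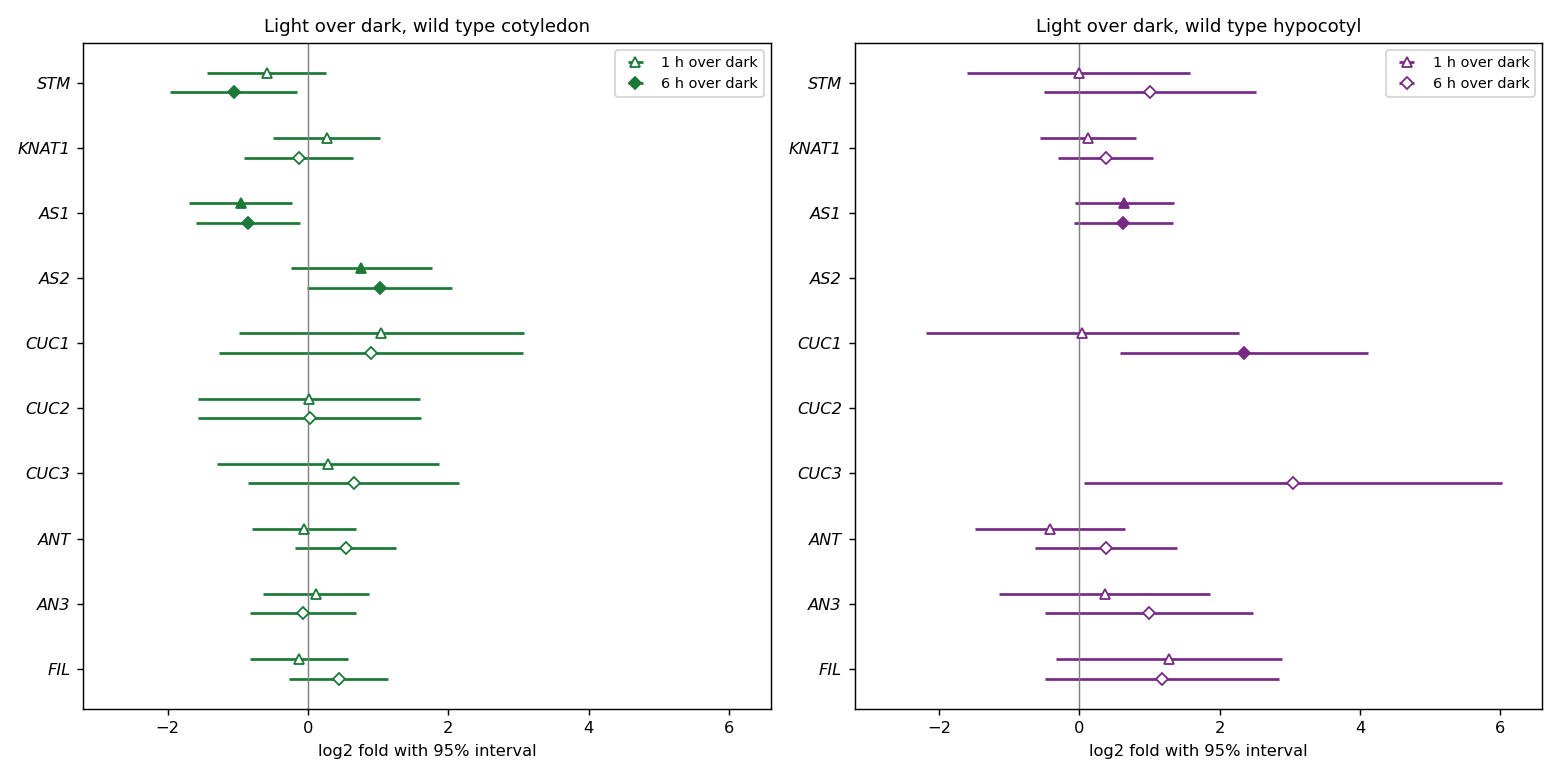
Log2 fold over dark of the 10 genes in wild type cotyledons (left) and hypocotyls (right) after 1 h (triangles) and 6 h (diamonds) of light, with 95% intervals recovered from the authors' statistic; filled symbols passed the authors' q-value. AS1 lies below 0 in cotyledons (-0.96 and -0.86) and above 0 in hypocotyls (0.64 and 0.63), and genes without a point were not tested.

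At 6 h the response to light differed between organs for 1 of 8 tested members, a share near the 12.6% of the 18153 genes tested in both organs. That member, AS1, differed by -1.49 on the log2 scale (interval -2.51 to -0.46). At 1 h 0 of 7 tested members differed, where 0.459% of all genes did, and the AS1 difference was -1.60 (interval -2.62 to -0.58), which did not pass after adjustment over 18089 genes. By this normal test with Benjamini-Hochberg adjustment, 1 of the 7 members, AS1, stood under 0.05 before adjustment at 1 h. With SEs taken from the authors' p-value AS1 was called at both times and STM at 6 h. STM differed by -2.06 at 6 h (interval -3.82 to -0.30) and did not pass either. AS1 was thus 9.12 times as high in cotyledons as in hypocotyls in the dark, 3.01 times at 1 h and 3.26 times at 6 h.

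Other genes of shoot development were counted in 6 lists with 58 genes in all. In pifq cotyledons 8 of 54 tested fell and 2 rose, where all genes gave 5.66% lower and 4.79% higher, with a median log2 fold of -0.66, beside -0.03 over all tested genes. Among GRF growth regulators, the partners of AN3, and its GIF relatives, 5 of 11 fell and 0 rose, beside the same 5.66% and 4.79%. GRF7 fell to 6.7 FPKM in pifq cotyledons, against 149.9 FPKM in wild type, a log2 fold of -4.48 (SE 0.35), and GRF2 to 8.02 FPKM in pifq, against 44.3 FPKM in wild type, a log2 fold of -2.47 (SE 0.32). Of 9 organ boundary genes tested 2 fell, against that background of 5.66%, BOP2 with a log2 fold of -1.78 (SE 0.35) and LSH4 with -1.29 (SE 0.41). In the list of other leaf growth genes TCP2 fell by 1.06 on the log2 scale. The 2 that rose were KNAT4, a class II KNOX gene known from differentiating tissue, with 1.11 (SE 0.32), and ATHB8, an HD-ZIP III gene known from procambium, with 1.01 (SE 0.33). Of 4 meristem maintenance genes tested, CLV1, CLV2, CLV3 and BAM1, 0 were called in pifq cotyledons, and before adjustment 0 stood under 0.05 in the authors' deposited table.

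In pifq hypocotyls 10 of 49 tested rose and 6 fell, where all genes gave 13% higher and 14.5% lower, with a median log2 fold of 0.33, beside -0.03 over all tested genes. CYP78A5, for a cytochrome P450 of the meristem periphery that promotes organ growth, rose to 4.73 FPKM in pifq hypocotyls, against 0.302 FPKM in wild type, a log2 fold of 3.97 (SE 0.64). PNY, for a BELL partner of STM, rose by 2.33 (SE 0.52), and CLV1, for a receptor that limits the stem cell pool, by 0.82 (SE 0.28). LSH4 rose by 2.47 (SE 0.78), the polarity gene YAB2 by 3.23 (SE 0.85), KNAT4 by 1.73 (SE 0.36), GRF4 by 2.92 (SE 0.87), GRF5 by 1.68 (SE 0.58) and AIL5, a relative of ANT, by 1.12 (SE 0.43). Some of these started from low levels. In wild type hypocotyls PNY, LSH4, YAB2, GRF4 and GRF5 stood at 0.505, 0.514, 0.205, 0.136 and 0.521 FPKM. In pifq hypocotyls they stood at 2.54, 2.85, 1.92, 1.04 and 1.67 FPKM. Of 9 organ boundary genes tested, 1 rose and 3 fell. RAX2, for a MYB factor known from axillary meristems, fell and stood at 11.9 FPKM in pifq and 83.4 FPKM in wild type, a log2 fold of -2.80 (SE 0.30), and LAS fell with a log2 fold of -2.48 (SE 0.59). The KNOX genes KNAT6 and KNAT7 also fell there, by 0.83 and 0.74 on the log2 scale, while KNAT1 was not called, and GRF7 fell with a log2 fold of -2.72 (SE 0.62). The rises stood beside the shift of cotyledon-high genes given above, whose part in them was not tested.

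**Figure D5:**
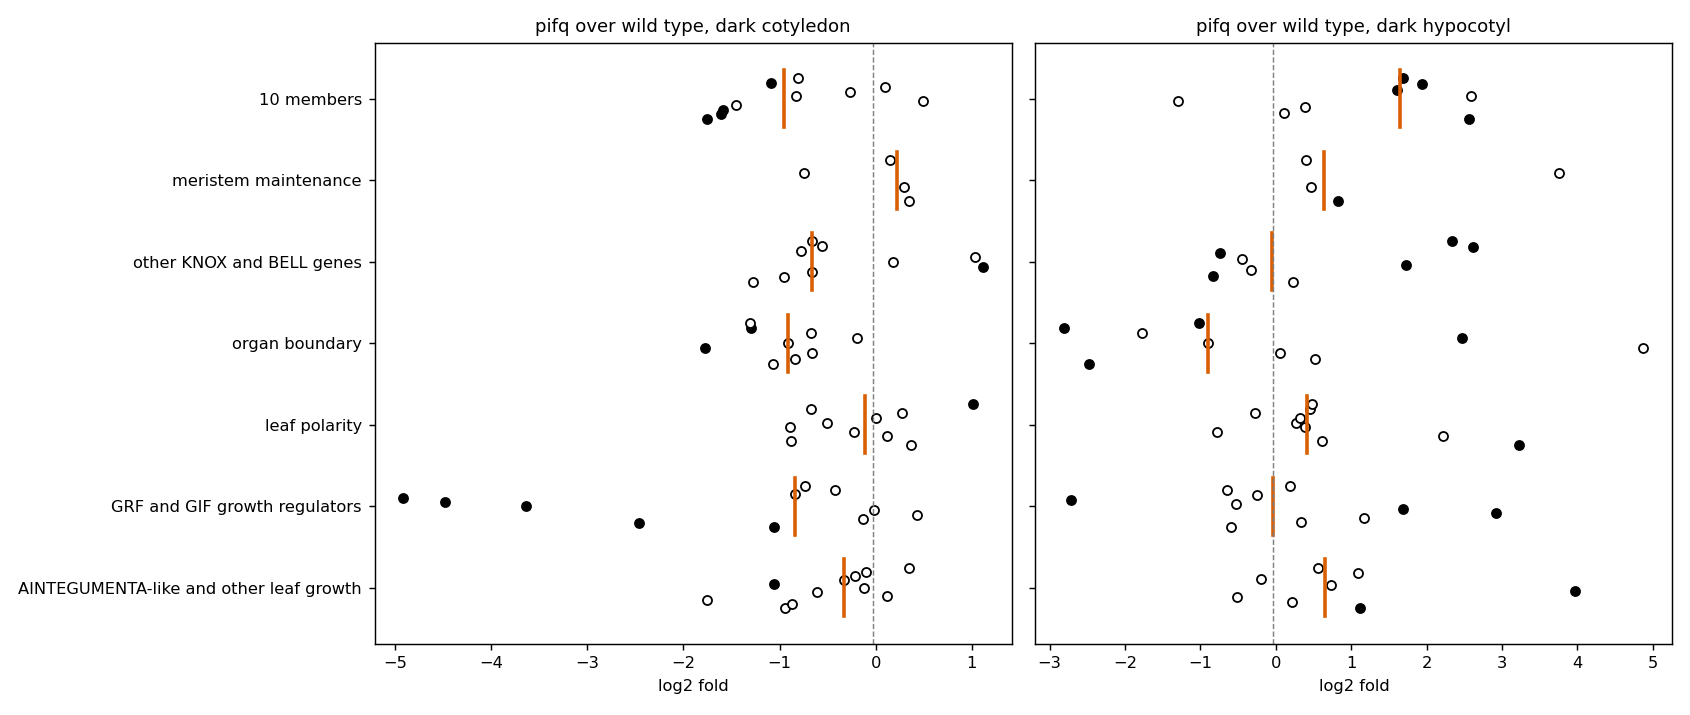
Log2 fold of pifq over wild type for the tested genes of the 10 members and of 6 other lists of shoot genes, in cotyledons (left) and hypocotyls (right); filled points passed the authors' q-value, orange bars are list medians and the dashed line is the median of all tested genes. The 10 members have medians of -0.96 in cotyledons and 1.65 in hypocotyls, and GRF7 (-4.48) and GRF2 (-2.47) are among the 5 filled points of the GRF and GIF list in cotyledons.

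In light, the other shoot genes gave 3 rises and 6 falls of 54 tested in cotyledons at 1 h, and 7 rises and 8 falls of 54 at 6 h. All genes gave 10.6% higher and 8.45% lower at 1 h and 24% higher and 19.8% lower at 6 h, and the lists' rises were a smaller share than that at both times. With centred folds and a normal p, the lists gave 4 and 9 calls in all at these times. GRF7 stood at 127 FPKM in dark cotyledons, 7.79 FPKM at 1 h and 0.743 FPKM at 6 h, called lower at both times, and GRF2 fell at 1 h with a log2 fold of -1.27 (SE 0.38). CLV1 fell at both times, with log2 folds of -1.45 (SE 0.36) and -1.02 (SE 0.34), and its relative BAM1 fell at 1 h by 0.94 on the log2 scale. CNA, an HD-ZIP III gene, also fell at both times, with 15.8 FPKM in the dark, 10.4 FPKM at 1 h and 8.69 FPKM at 6 h. TCP10, of the TCP genes that end leaf cell division, rose at both times, by 0.88 (SE 0.34) and 1.67 (SE 0.34), and YAB5 rose at 6 h by 1.24 (SE 0.39). At 1 h ARGOS, an auxin-induced gene of organ size, rose by 1.40 (SE 0.44) and KAN2, of lower leaf identity, by 0.64 (SE 0.38). At 6 h GRF4 rose by 1.91 (SE 0.46), KNAT4 by 1.09 (SE 0.36), ATHB8 by 0.89 (SE 0.38), BOP1 by 1.11 (SE 0.70) and LSH4 by 0.79 (SE 0.41), whereas GRF8, LOF1 and KNAT2 were lower by log2 folds of -2.57, -1.72 and -0.95. STM and CLV1 fell at 6 h in the same organ, while CLV3 was not called.

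In hypocotyls the same lists gave 3 rises and 5 falls of 45 tested at 1 h, and 7 rises and 11 falls of 49 at 6 h, and 2 and 9 calls in all with centred folds and a normal p. All genes gave 10% higher and 5.14% lower at 1 h and 17.3% higher and 22% lower at 6 h. BOP2, for a BTB protein of the boundary, rose at both times, with 5.86 FPKM in the dark, 20 FPKM at 1 h and 14.4 FPKM at 6 h. KNAT3 and TCP10 rose at 1 h, by 0.83 (SE 0.36) and 1.49 (SE 0.58). At 6 h ATH1, for a BELL partner of STM, rose to 1.37 FPKM, against 0.168 FPKM in the dark, LSH3 rose by 1.06 (SE 0.42) and CYP78A5 by 2.07 (SE 0.85). LOF1 fell at both times, with log2 folds of -1.08 (SE 0.67) and -2.66 (SE 0.84), and ATHB8, PHV, TCP24 and GRF7 also fell at both times. KNAT7, a class II KNOX gene of secondary walls, fell at 6 h to 20.4 FPKM, against 48.5 FPKM in the dark, and LAS, GRF2 and TCP4 fell at 6 h with log2 folds of -1.15, -0.95 and -1.75. The boundary list held 4 rises and 2 falls of 9 tested at 6 h, where all genes gave 17.3% and 22%.

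The genes with the most similar profile were sought over the 8 group levels, each organ in the dark, at 1 h, at 6 h and in pifq, by Pearson's r of log2(FPKM + 1) among 16385 genes. These correlations are descriptions over 8 points that share the scaling of their organ's tables. For STM they were AT3G13510 (r = 0.959), ER (r = 0.958) and THO5 (r = 0.958). ER, for the receptor kinase ERECTA, had 45.8 FPKM in pifq cotyledons, against 106, 53.4 and 34.4 FPKM at 0, 1 and 6 h in wild type cotyledons, and 21.4 FPKM in pifq hypocotyls, against 3.15, 3.91 and 8.06 FPKM in wild type hypocotyls. For FIL they were ABCI13 (r = 0.998), AT2G35130 (r = 0.996) and YAB3, its closest YABBY relative (r = 0.996). AN3 was matched by AT5G64816, TIM and SERK2 (r = 0.997, 0.997 and 0.994), and AS1 by AT3G09160, AT2G47630 and AT1G18340 (r = 0.984, 0.983 and 0.978). With a pseudocount of 0.1 FPKM, 2 of 3 genes were the same for STM and AS1, 3 of 3 for AN3 and 1 of 3 for FIL.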

How the data were processed

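RNA of 24 samples was sequenced. Per the labels' protocols, each group had 3 biological repeats and libraries were read on an Illumina HiSeq. The submitters' processing notes name TopHat, Cufflinks and TAIR10 but no versions. The authors deposited 6 tables with 1 value per group, taken as FPKM from the column layout, their test statistic (a score), p-values, q-values and a test status. Depth and values per sample are not given there, so precision rests on the authors' statistic alone.

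Log2 folds were computed from the group values, and the SE by dividing each fold's size by that of its statistic, with 95% intervals of 1.96 SE. The statistic of the pifq tables had the opposite sign to the fold, so directions were read from the levels. The organ difference was tested with a two-sided normal p and Benjamini-Hochberg adjustment over all genes tested in both tables. Python 3.11.15, pandas 2.3.3, numpy 2.4.6, scipy 1.17.1 and matplotlib 3.10.9 were used. Promoters were read from the RefSeq genome TAIR10.1, on which 26687 of 26687 compared genes overlapped their deposited locus. The 10 members and the lists were chosen with earlier results of these data known. All members were named, with up to 2 risen and 2 fallen called genes per other list by smallest p and at least 1 FPKM in the higher group, and the 3 most similar genes for STM, AS1, AN3 and FIL with at least 5 FPKM in a group. The alternatives were a stricter q-value, adjustment within a table, centred folds, a filter on low values, other pseudocounts and the wild type column of the other tables.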

Additional observations from a re-analysis of the deposited data

Results flagged for a closer look

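The results below are those in which a member's response differed between cotyledons and hypocotyls by the test of the difference, given as the cotyledon minus the hypocotyl log2 fold. In pifq the difference was -4.31 for STM, -3.02 for AN3, -2.50 for FIL, -1.98 for AS1, -1.72 for KNAT1 and -1.51 for ANT. After 6 h of light it was -1.49 for AS1. Among these members in pifq, STM and AN3 passed the authors' q-value in both organs, in opposite directions, while KNAT1 and AS1 passed in cotyledons alone and ANT and FIL in hypocotyls alone.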

How the results depend on the processing

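No paired analysis was possible because the deposited columns carry 1 value per group and no replicate numbers, and for the same reason no replicate could be left out. The calls of members in pifq stayed within 1.5 times of 4 in each organ under the 5 alternatives run, and so did the 6 differences between organs under 4. In the pifq tables a normal p or SEs from the authors' p-value could change little, because that p-value already follows the normal law of their statistic. Ignoring the test status could add no member there, since the untested ones had a q-value above the cut. Adjustment within the table gave the same 934 higher and 1105 lower genes in pifq cotyledons as the main setting. In pifq hypocotyls it gave the same 2651 and 2962 genes, so this setting was no separate check there. Light calls depended more on the processing, in tables where these settings can change more, and the cause was not tested. In cotyledons at 1 h the 2 calls became 1 at a q-value under 0.01, with adjustment within the table and with at least 1 FPKM, and 0 with centred folds and a normal p; at 6 h that setting gave 0 of 3. In hypocotyls the 1 call at 1 h became 0 at a q-value under 0.01 and with centred folds, and the 2 at 6 h became 1 under either. Among other shoot genes centred folds gave 4 calls for 9 and 9 for 15 in cotyledons, and 2 for 8 and 9 for 18 in hypocotyls at 1 h and 6 h. A q-value under 0.01 gave 5 for 8 in hypocotyls at 1 h, 6 for 10 in pifq cotyledons and 10 for 16 in pifq hypocotyls. Differences between organs became 1 for 0 at 1 h and 2 for 1 at 6 h with SEs from the authors' p-value, and 0 at 6 h at an adjusted p under 0.01. Of 60 member folds 0 called ones changed sign when centred or with the wild type column of the other tables. Among uncalled folds 2 did when centred and 4 with that column. The other pseudocounts add the same amount to both levels and so could not change a sign.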
